A study of Mus musculus with 8 samples.

Results

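miR-139 is a microRNA (miRNA) hairpin whose mature arms, mmu-miR-139-5p and mmu-miR-139-3p, were both followed here through small RNA libraries of mouse CD8+ T cells. The arms were taken by name from the deposited count table, as 2 of its 1978 mature miRNAs, and both were among the 375 with enough counts to test. The hairpin had been chosen by its level in these same libraries, since the 5p arm was known to differ between the ages. The age differences of its arms and of their ratio are therefore given as descriptions, with no test.

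Of the 8 libraries, 4 were neonatal (mice 5 to 7 days old) and 4 adult (12 weeks old), all from the inbred strain C57BL/6. CD8+ T cells, which kill infected cells, had been pulled out of spleens with CD8a magnetic beads, and their total RNA was turned into libraries of short inserts. Library totals ran from 1281031 to 2606630 counts. The labels give no treatment or genetic change, and do not say whether libraries of the same age stem from separate animals or from pools. Standard deviations and p-values therefore measure the spread between these libraries, which may be technical.

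A miRNA hairpin is cut by Dicer into a short duplex, of which usually 1 strand, the guide, is kept by an Argonaute protein and directs it to messenger RNAs, while the other, the passenger, is degraded. The guide finds its targets mainly by its seed, bases 2 to 8. The 5p arm of miR-139 is usually the abundant strand. In mouse CD8+ T cells its level is known to fall after stimulation through the T cell receptor, and forced expression of miR-139 is known to dampen effector genes such as those of perforin and eomesodermin.

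The hairpin is shown with both mature arms in capitals, because the results turn on the balance between them. RefSeq places it on the plus strand of mouse chromosome 7, at chr7:101475376-101475443 (GRCm38, the assembly also called mm10).

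Mir139 hairpin: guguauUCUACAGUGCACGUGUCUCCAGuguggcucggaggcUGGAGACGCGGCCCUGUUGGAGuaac

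The mature arms follow with their seeds in capitals. The 5p arm lies at chr7:101475382-101475403 and the 3p arm at chr7:101475418-101475439.

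mmu-miR-139-5p: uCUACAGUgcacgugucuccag

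mmu-miR-139-3p: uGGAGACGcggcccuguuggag

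Both arms are 22 bases long and begin with U. The 3p arm is the richer in G and C, with 68.2% against 54.5% in the 5p arm. In the predicted fold of lowest energy (-35.6 kcal per mol, RNAfold), 19 of the 22 bases of the 5p arm pair with the 3p arm. The seeds of the arms differ from each other. No other miRNA of the table carried either seed among the 1679 of 1978 whose mature sequence RefSeq gives. The nearest of those sequences was 7 edits away from the 5p arm and 6 edits away from the 3p arm. All counts of both arms were whole numbers in the deposited table, which holds fractions for many other miRNAs.

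The hairpin sits in an intron of Pde2a, which encodes a phosphodiesterase that breaks down cyclic AMP and cyclic GMP, on the same strand as the gene. In the GENCODE annotation of the same assembly, Pde2a spans 101421691 to 101512827 on chromosome 7. The hairpin lies in intron 2 of a Pde2a transcript with 31 exons (intron from 101451469 to 101481370), and no exon of any of the 12 annotated Pde2a transcripts overlaps it. A second annotated gene, Gm45837, spans the same stretch (101410886 to 101512819). Messenger RNA was not measured in these libraries, so the level of the host gene is not known from them.

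mmu-miR-139-5p was lower in all neonatal libraries than in any adult one. Neonatal libraries 1 to 4 held 2921, 4842, 3396 and 5290 raw counts of it, against 7463, 11425, 15611 and 13248 raw counts in the adult ones. Unless stated otherwise, levels are given as depth-scaled counts (CPM) after TMM, a scaling by the trimmed mean of log ratios between libraries. On that scale the 5p arm stood at 1559, 1847, 1480 and 1892 CPM in the neonatal libraries and at 7248, 7997, 7421 and 6648 CPM in the adult libraries. The ages were well apart, with no library between 1892 and 6648 CPM.

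The means were 1694 ± 206 CPM in neonatal libraries, against 7329 ± 555 CPM in adult ones (SD, n = 4 each), a 4.33-fold lower level in neonatal cells. On the log2 scale the fitted change, neonatal over adult, was -2.11 ± 0.14 (SE). Of all 375 miRNAs tested, 63.2% had an adjusted p under 0.05 (edgeR quasi-likelihood, Benjamini-Hochberg) in either direction, and groups did not overlap for 57.3%. A difference between the ages was thus common among miRNAs. The size of the 5p change ranked 11 among the 168 miRNAs that reached 100 CPM in an age's mean, counted from the strongest fall. In such bulk libraries, fewer cells carrying a miRNA and less of it per cell cannot be told apart.

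The spread among libraries of the same age was small for this arm. Its coefficient of variation was 12.1% in neonatal libraries and 7.58% in the adult ones, where the median over the 168 miRNAs was 15.7% in both ages. In rank by count, the 5p arm held places 50 to 55 of the 688 to 787 miRNAs with a count in neonatal libraries, and places 26 to 30 of 608 to 685 in adult libraries. It took 0.210% ± 0.0167 of all counts in neonatal libraries, against 0.588% ± 0.0376 in adult ones (SD, n = 4 each).

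mmu-miR-139-3p, the arm usually treated as the passenger, had levels that overlapped between the ages on the TMM scale. Neonatal libraries 1 to 4 held 730, 987, 771 and 879 raw counts of it, against 520, 498, 906 and 847 raw counts in the adult ones. TMM scaling turned these into 389.5, 377, 336 and 314 CPM for the neonatal libraries and 505, 349, 431 and 425 CPM for the adult libraries. Adult library 2 lay below neonatal libraries 1 and 2.

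The 3p means were 354 ± 35.0 CPM in neonatal libraries, against 427 ± 63.9 CPM in adult ones (SD, n = 4 each). The fitted log2 change was -0.27 ± 0.15 (SE), so that this arm ranked 89 of the 168 and stood near the middle of all miRNAs. Its place by count was 101 to 113 in neonatal libraries, against 100 to 114 in adult ones. The 3p arm held nearly the same place in both ages, while the 5p arm stood lower in every neonatal library than in any adult one.

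**Figure D1:**
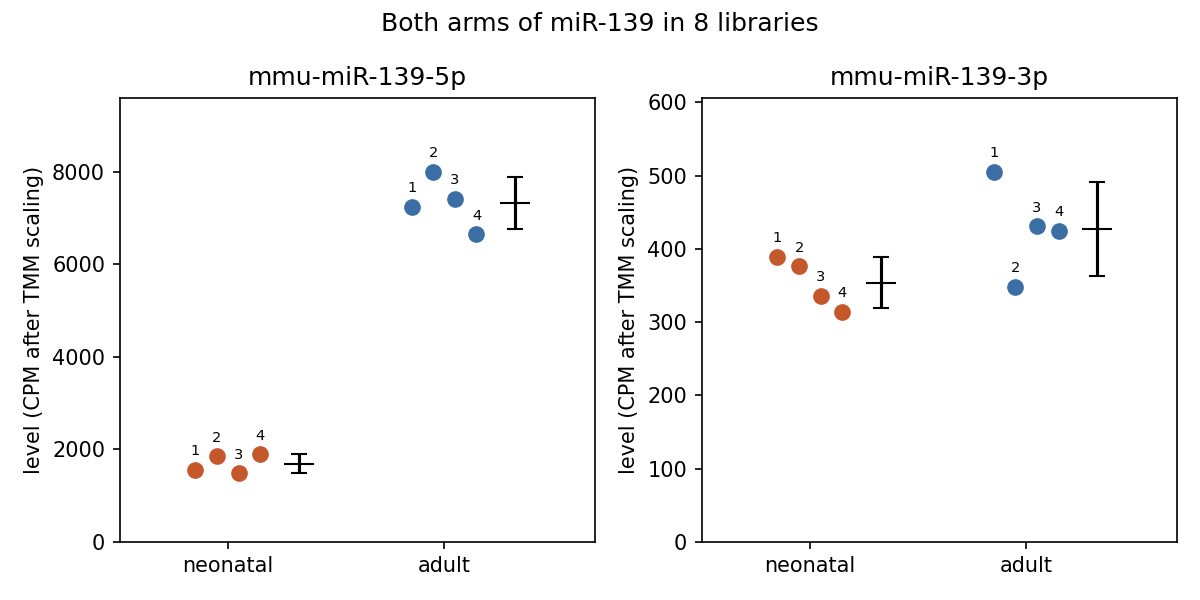
Level of each arm of miR-139 in the 4 neonatal and 4 adult libraries, in CPM after TMM scaling (y axes start at 0 and differ between panels). Points are libraries, labelled by replicate number, and bars are mean ± SD. The neonatal 5p values (1480 to 1892 CPM) lie below all adult ones (6648 to 7997 CPM), and the 3p values of the ages overlap.

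The size of each arm's change depended on the scaling between libraries. With plain library totals, the 5p arm stood at 2102 ± 167 CPM in neonatal libraries, against 5878 ± 376 CPM in adult ones (SD, n = 4 each), a log2 change of -1.48 ± 0.12 (SE). On the same scale the 3p arm turned to 0.37 ± 0.16 (SE), with 442 ± 58.7 CPM in neonatal libraries, against 343 ± 53.7 CPM in adult ones. This choice moved the median log2 change of all miRNAs by 0.63, and the calls from 109 higher and 128 lower to 186 higher and 68 lower. An offset for GC content put the 5p arm at -2.42 ± 0.15 and the 3p arm at -0.77 ± 0.13 (SE). The 5p arm was lower in neonatal cells on all scales tried (TMM, RLE, library totals and the GC offset), whereas the 3p arm has no direction that holds on all of them.

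The ratio of the arms within a library needs no scaling between libraries, and it separated the ages. The 5p arm had 4.00, 4.91, 4.40 and 6.02 counts per 3p count in neonatal libraries 1 to 4, against 14.4, 22.9, 17.2 and 15.6 in adult libraries 1 to 4. No library lay between a ratio of 6.02 and 14.4. Small RNA kits ligate adapters with sequence preferences, so the ratio itself is not a ratio of molecules. The same pair of sequences was compared in all libraries, and whether these preferences were alike in both ages was not tested.

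The mean ratio was 4.83 ± 0.873 in neonatal libraries, against 17.5 ± 3.79 in adult ones (SD, n = 4 each), 3.63-fold lower in neonatal cells. On the log2 scale, with 0.5 added to each count, the difference was -1.85 ± 0.19 (SE), and the 4 neonatal-to-adult differences of same-numbered libraries ran from -2.22 to -1.38. The 3p arm made up 17.4% ± 2.46 of miR-139 counts in neonatal libraries, against 5.55% ± 1.00 in adult ones. For the 5p share, 95% Wilson intervals of single libraries spanned 78.7% to 86.6% in neonatal libraries, against 92.9% to 96.2% in adult ones. The intervals hold only the counting error of reads. They may be too narrow for molecules, because reads with no molecular identifier need not be separate molecules.

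**Figure D2:**
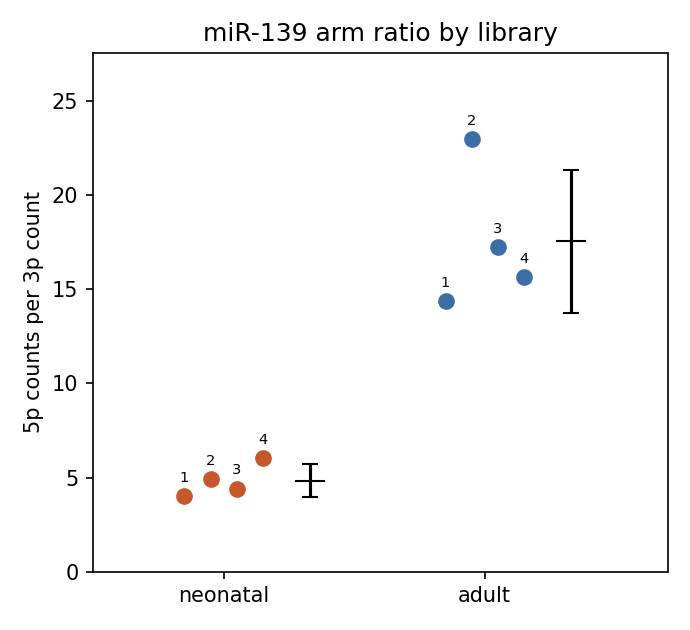
Counts of the 5p arm per count of the 3p arm of miR-139 in each library (y axis from 0), for neonatal and adult mice, with replicate numbers beside the points and mean ± SD at the right of each group. Neonatal libraries lie between 4.00 and 6.02 and adult libraries between 14.4 and 22.9.

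Other hairpins show how common such shifts were. Both arms passed the count filter for 102 hairpins, of which 43.1% differed between the ages in their arm ratio by limma (adjusted p under 0.05), 22 lower and 22 higher in neonatal libraries. For 79 of the 102, miR-139 among them, each arm came from 1 precursor. In the others an arm was summed over precursors, and some arms enter more than 1 ratio. The groups did not overlap for 39.2% of the hairpins. The median size of the log2 difference, taken without sign, was 0.59 over the hairpins. The ratio of miR-139 had the lowest of the 102 differences, which ran up to 2.6, and ranked 5 by size in either direction.

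The next hairpins in this order were mir-301b (-1.83 ± 0.67, SE) and mir-322 (-1.81 ± 0.55), both counted thinly. miR-301b-3p had 0 counts in all adult libraries, so that its ratio rests on the 0.5 added, and miR-322-5p went down to 2 counts. By limma mir-322 passed (adjusted p = 0.0111) and mir-301b did not (adjusted p = 0.0888). Leaving out a library in turn moved miR-139 between places 1 and 4 in this order. Adding 1 to each count in place of 0.5 put it at place 2, and a filter of 20 total counts per arm at place 5 of 155 (14 by size). A limit of 100 counts of each arm in every library, chosen after the values were seen, left 30 hairpins. Among these miR-139 had the largest difference in either direction, followed by mir-150 (-1.78 ± 0.11, SE) and mir-30b (-1.56 ± 0.22), while the highest was 1.37. mir-30b also came near miR-139 in the change of each arm, with 5p at -2.02 and 3p at -0.49.

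**Figure D3:**
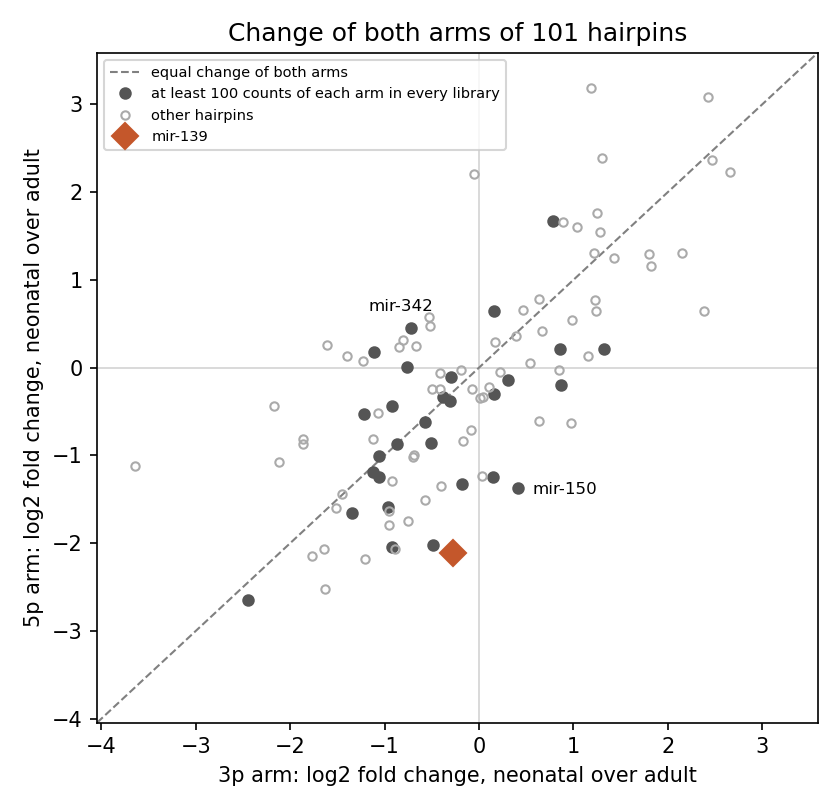
Log2 fold change, neonatal over adult, of the 3p arm (x axis) and the 5p arm (y axis) for 101 hairpins with both arms tested. The hairpin with an arm at 0 in adult libraries is not drawn. Points on the dashed line changed alike in both arms. mir-139 lies below it, at -0.27 for 3p and -2.11 for 5p. The point of mir-30b, not labelled, lies nearby at -0.49 for 3p and -2.02 for 5p. mir-150 also lies below the line, and mir-342 lies above it.

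The hairpins that carry other miRNAs of resting T cells differed among themselves. Among these, mir-150, whose 5p arm is abundant in mature lymphocytes, had the arm ratio difference closest to that of miR-139. It had 20.7, 21.1, 18.9 and 22.6 5p counts per 3p count in neonatal libraries, against 83.1, 76.0, 64.1 and 64.3 in adult libraries (limma adjusted p = 3.15e-07), with miR-150-5p at -1.37 ± 0.18 (SE) in level. miR-150-3p stood at 0.42 ± 0.18 without passing (edgeR's adjusted p = 0.0653), but that depended on the setting. It passed as higher with RLE scaling (edgeR's adjusted p = 0.0150), library totals (0.000475) and the replicate block (0.00443). DESeq2 (adjusted p = 0.00703) and limma-voom (adjusted p = 0.0471) also called it higher, as did some fits without 1 library but not others. With the GC offset it stood at -0.02 ± 0.12 without passing. mir-342, where 3p is the larger arm, moved the other way, by 1.15 ± 0.12 (SE, limma adjusted p = 0.00023), so that here too the larger arm lost share in neonatal cells. The ratios of mir-26b (-0.38 ± 0.13) and mir-26a-2 (-0.35 ± 0.19) did not pass by limma (adjusted p of 0.147 and 0.193). The 5p arm of mir-26a-2 was summed over 2 precursors. Over all 102 hairpins, the larger arm held a smaller share in neonatal libraries for 68, with a median log2 difference of -0.35.

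The arms of miR-139 differ in GC content by 13.6 percentage points, and GC content moved weakly with the age difference. Across the 83 hairpins with sequences for both arms, the difference in log2 arm ratio followed the GC content of the 5p arm less that of the 3p arm (Pearson r = 0.320, Spearman rho = 0.308). This correlation runs across hairpins that share the same 8 libraries, which are not independent replicates. With the GC offset, the 5p fold change less the 3p fold change was -1.64 on the log2 scale, in place of -1.85 for the ratio, a comparison added after the data were seen. The part of GC content in the remaining difference was not tested.

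Among 5 other miRNAs linked to resting T cells, 4 fell in neonatal libraries and none rose. Of all miRNAs tested, 34.1% were lower and 29.1% higher. The list holds both arms of mir-342 and was chosen with earlier results of these data known, so its counts are descriptions only. The median log2 change of the list was -1.02, against -0.05 for all 375. miR-150-5p averaged 54314 ± 2743 CPM in neonatal libraries, against 140507 ± 37922 CPM in adult libraries (SD, n = 4 each). miR-26b-5p averaged 6480.2 ± 1303 CPM in neonatal libraries, against 15909 ± 2004 CPM in adult libraries (log2 change -1.30 ± 0.16, SE). miR-26a-5p (-1.02 ± 0.14) and miR-342-3p (-0.72 ± 0.19) fell as well, with edgeR's adjusted p from 2.36e-05 to 0.00561 over the 4. miR-342-5p was at 0.45 ± 0.21 without a call by edgeR (adjusted p = 0.0833), but its call depended on the setting. It rose with the replicate block (edgeR's adjusted p = 0.00217), RLE scaling (0.0290) and no filter on low counts (0.00260), and by DESeq2 (adjusted p = 0.0188). Neither limma-voom nor the GC offset alone called it. With library totals, 3 of the 5 fell, miR-342-5p rose and miR-342-3p lost its call (-0.09, edgeR's adjusted p = 0.706). The change of miR-139-5p was larger than each of these on the TMM scale, a comparison for which the choice of miR-139-5p allows no test.

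miRNAs that T cell activation is known to change moved both ways. They too were listed with earlier results of these data known. Of 12 on this list, 5 rose and 6 fell by edgeR, with a median log2 change of -0.41, where 63.2% of all miRNAs were called (29.1% higher and 34.1% lower). miR-210-3p and miR-31-5p passed the count filter only through the neonatal libraries, where they are high. miR-155-5p, which CD8+ T cells need to mount effector responses, averaged 376 ± 27.0 CPM in neonatal libraries, against 1266 ± 172 CPM in adult ones (-1.75 ± 0.15, SE, edgeR's adjusted p = 6.98e-07). miR-146a-5p, which restrains NF-kB signalling, changed by -2.86 ± 0.15, miR-221-3p by -1.64 ± 0.15 and miR-222-3p by -1.01 ± 0.17, all lower in neonatal libraries. miR-210-3p, a miRNA that hypoxia induces, went up by 2.65 ± 0.27, miR-31-5p by 1.87 ± 0.26, miR-183-5p by 1.60 ± 0.14, miR-132-3p by 1.28 ± 0.28 and miR-182-5p by 0.81 ± 0.14. miR-96-5p (-0.64 ± 0.25) and miR-146b-5p (-0.66 ± 0.15) fell, and miR-21a-5p stood at -0.19 ± 0.24 without passing (edgeR's adjusted p = 0.523). With library totals 5 rose and 3 fell. The calls lost were those of miR-96-5p, miR-222-3p and miR-146b-5p. The call of miR-96-5p was also lost in every fit without 1 library other than the fit without adult library 1. RLE scaling (edgeR's adjusted p = 0.0725), no filter on low counts (0.178) and the GC offset (0.200, or 0.165 with the replicate block) lost it as well. DESeq2 did not call it either (adjusted p = 0.0916). It was kept with limma-voom, the replicate block alone and a filter of at least 10 CPM in 4 libraries.

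**Figure D4:**
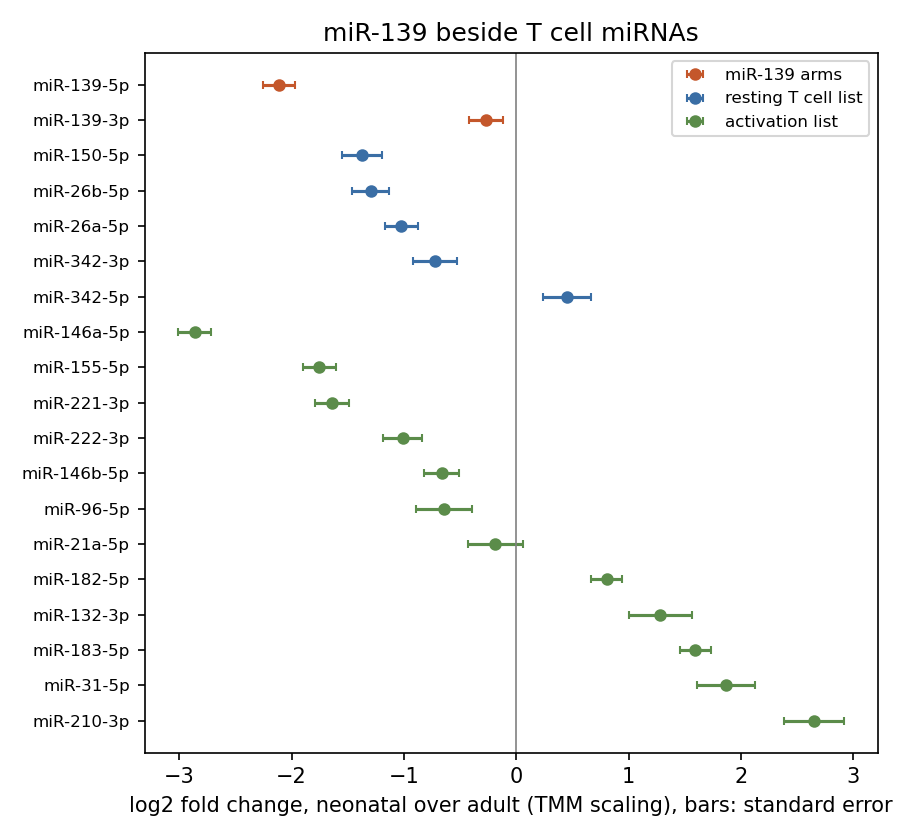
Log2 fold change, neonatal over adult, after TMM scaling (x axis, bars are standard errors) for both arms of miR-139, 5 miRNAs linked to resting T cells and 12 linked to T cell activation. miR-139-5p at -2.11 lies left of all 5 resting miRNAs, and the activation miRNAs run from -2.86 to 2.65.

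The miRNAs whose pattern came closest to each arm were named by the root mean square distance between log2 CPM profiles over the 8 libraries, each centred on its own mean. For the 5p arm the nearest of 166 were miR-1843a-3p (0.222), miR-30b-5p (0.226), miR-155-5p (0.237), miR-467e-5p (0.257) and let-7c-5p (0.266), against a median distance of 0.928. Their log2 changes, which the choice by likeness fixes to be near that of the 5p arm, were -2.44 to -1.75. miR-1843a-3p and miR-467e-5p reached a mean of 100 CPM in the adult group only. miR-30b-5p averaged 537 ± 155 CPM in neonatal libraries, against 2175 ± 239.6 CPM in adult libraries. For the 3p arm the nearest were let-7d-3p (0.134), miR-1964-3p (0.137), let-7d-5p (0.147), let-7a-5p (0.157) and miR-200b-3p (0.167), against a median of 0.520. Their log2 changes, likewise fixed by the choice, lay between -0.44 and -0.19 on the TMM scale. No miRNA was among the 5 nearest of both arms, which was largely fixed as well, because the arms' own changes lie far apart.

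Magnetic enrichment leaves some other cells, and miRNAs typical of them were measured beside these results. Erythroid miRNAs took 0.0356% to 0.0998% of counts in neonatal libraries, against 0.00949% to 0.0202% in adult ones. All 3 tested of the 5 listed rose, including miR-451a, where 29.1% of all miRNAs tested were higher. The others, miR-486a-5p (257 ± 103 CPM in neonatal libraries) and miR-486b-5p (267 ± 108 CPM), had nearly the same levels and need not be separate measurements. Endothelial miRNAs took 0.0162% to 0.0185% in neonatal libraries, against 0.00375% to 0.00607% in adult ones. Of these, miR-126a-3p rose, and miR-126a-5p, with as little as 1 count in a library, passed the count filter only through the neonatal libraries. Stromal miRNAs took 0.0132% to 0.0221% in neonatal libraries, against 0.00299% to 0.00662% in adult ones. Of 6 listed, 3 were tested, of which miR-10b-5p and miR-199a-3p rose. The third, miR-143-3p, had ages that overlapped, and its call was lost without adult library 1 (edgeR's adjusted p = 0.0649) and without adult library 4 (adjusted p = 0.0628). The liver miRNA miR-122-5p rose too, with 1200.3 ± 359.6 CPM in neonatal libraries, against 286 ± 70.4 CPM in adult libraries. The 2 myeloid miRNAs, led by miR-223-3p with at most 20 counts in any library, were too low to test and took at most 0.0011% of counts in neonatal libraries, against 0.000717% in adult ones. Of miRNAs general to blood cells and T cells, miR-142a-3p, miR-142a-5p and miR-150-5p fell and miR-181a-5p (0.21 ± 0.14, SE) did not pass. The ages overlapped for miR-142a-3p, whose call was lost with library totals (-0.72, edgeR's adjusted p = 0.0531) and with no filter on low counts (adjusted p = 0.0553). With library totals miR-181a-5p rose (0.84 ± 0.12, SE). The part of other cells in the levels of miR-139 was not tested.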

How the data were processed

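Small RNA libraries of CD8+ T cells covered 4 neonatal and 4 adult samples. The deposited table held raw estimated counts for each pair of mature miRNA and precursor (2128 entries). The build was mm10, per the submitters' processing notes. Which aligner, counter and annotation release were used is not given in the sources used here. Counts were summed over precursors and rounded. Totals were 1281031 to 2606630 counts per library, and libraries of an age all differed from each other by more than counting noise (chi-square over degrees of freedom at least 9.62).

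miRNAs past edgeR's filterByExpr (minimum count 10, total 15) went into edgeR (4.0.16, R 4.3.3) and its quasi-likelihood F test, with TMM, robust dispersions and age alone as a term, and a Benjamini-Hochberg threshold of 0.05. Each standard error of a level change was the fold change over the root of F. Arm ratios, log2((5p + 0.5)/(3p + 0.5)), were fitted with limma 3.58.1 with a trend on abundance. Their standard errors used each hairpin's own residual spread, whereas limma's p-values used a variance moderated across hairpins. Both steps were tested on simulated data. DESeq2 1.42.0, limma-voom, other scalings and filters, a GC offset (mature GC content found for 83.7% of tested miRNAs) and single libraries left out were alternatives. RNAfold 2.7.2 folded the hairpin.

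Replicate numbers 1 to 4 occur in both ages. Deviations of same-numbered libraries correlated at r = 0.256 to 0.415 in all 4 pairs, above the limit of 0.1 set for this check, so the numbers were taken to pair the samples in an alternative fit. Libraries with unlike numbers reached r = 0.482, and only 5 of 8 libraries correlated best with their own number. Nothing beyond this check supports the pairing, as the labels do not explain the numbers. Members, lists and naming rules (both arms, the lists, the 5 nearest patterns with at least 100 CPM in either age, hairpins next to miR-139 in arm ratio, and the limit of 100 counts) were chosen with earlier results of these data known.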

Additional observations from a re-analysis of the deposited data

Results flagged for a closer look

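Dixon's test for a library far from the others of its age was applied to 84 sets of 4 libraries, the levels of 41 named miRNAs and the arm ratio of miR-139 in each age, and chance flags about 1 in 20. It flagged 3 and none of them was an arm of miR-139 or their ratio. miR-96-5p stood at 8.0 CPM in neonatal library 1, against 14.8 to 15.7 CPM in the other neonatal libraries. miR-122-5p stood at 390.4 CPM in adult library 1, against 245 to 262 CPM in the others. miR-1843a-3p stood at 67.2 CPM in neonatal library 1, against 77.6 to 79.7 CPM.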

How the results depend on the processing

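The log2 arm ratio difference of miR-139 lay between -1.96 and -1.64 under the 14 alternatives, within the replicate spread (SD 0.27 between libraries of an age). The SE of the difference was smaller (0.19), and -1.64 came with the GC offset. The count filters, the replicate block and unrounded counts are 4 of the alternatives and by construction cannot move the ratio difference. The 5p fold change stayed within its own replicate spread (SD 0.15) under 14 of 17. It moved to -1.48 with library totals, -2.42 with the GC offset and -2.42 with the GC offset and the replicate block. The 3p fold change moved to 0.37, -0.77 and -0.78 under the same settings, and leaving out each library in turn gave -0.31 to -0.12. The replicate number as a block alone gave -2.12 for 5p, -0.27 for 3p and -1.85 for the ratio. It gave 265 miRNAs past the threshold in place of 237, 50 hairpins in place of 44 and, among the resting and activation lists, changed the call of miR-342-5p only. RLE scaling moved the median change of all miRNAs by 0.12, the GC offset by -0.10 and library totals by 0.63. With library totals both arms shifted up together with that median. Why the arms moved under the GC offset was not tested. Over all alternatives 213 to 287 miRNAs and 38 to 53 hairpins passed.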
